A study of Mus musculus with 6 samples.

Results

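Basement membrane collagens, nidogens and perlecan were examined in endothelial cells of the mouse lung, which form the inner lining of vessels, held at low oxygen, in arrays labelled HIF-2α knockout and in controls. HIF-2α, the product of Epas1, is a transcription factor that accumulates when oxygen is scarce. The group comprised 8 genes: Col4a1, Col4a2, Col4a5, Col15a1, Col18a1, Nid1, Nid2 and Hspg2. Probe sets, the array's measuring units for a transcript, were taken where the platform annotation named 1 of these genes alone. That gave 14 probe sets for the 8 genes, out of 18194 genes named in this way on the array. The brightest probe set over the 6 arrays stood for each gene and the others served as a check. Of the 8 genes, 7 passed the filter on low signal and were tested among 12277 genes.

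The study had 3 control and 3 knockout arrays, all from cells kept at 0.5% oxygen for 16 h, and no array came from cells at higher oxygen. The knockout cells came from mice with VE-Cadherin-Cre, which acts in endothelial cells, and a HIF-2a floxed/floxed genotype. The labels describe the controls in 3 ways: as VE-Cadherin-Cre HIF-2a floxed/WT, as Hif-2a floxed/floxed, and as wild type. The cells were selected repeatedly with endothelial markers and checked by flow cytometry, per the labels. Age, the number of mice and whether arrays came from separate cultures are not stated, so the p-values reflect array-to-array spread alone, which may be technical. In such bulk RNA, fewer cells of a type and less RNA per cell cannot be told apart.

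Basement membranes are thin sheets of matrix on which endothelial cells sit. Laminin and type IV collagen each form a network, and nidogens and the heparan sulfate proteoglycan perlecan bind both networks and tie them together. Type IV collagen of vessels is built mainly from trimers of the chains encoded by Col4a1 and Col4a2. Collagens XV and XVIII lie at the border between basement membrane and the matrix beyond it, and collagen XVIII releases endostatin, a fragment that restrains vessel growth.

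Of the endothelial markers, 10 of 10 were over the floor signal of 16 intensity units in at least 1 array. Cdh5, the VE-cadherin gene, read 21602 ± 1853 in controls and 16286 ± 2559 in knockouts (SD, n = 3) and did not pass the test, and Pecam1 fell (18050 ± 1162 to 14287 ± 809, SD, n = 3). Cldn5, a tight junction gene, had a low signal, from 38.0 to 74.7 in controls and from 15.2 to 37.6 in knockouts, with 1 array under the floor. The summed signal of the 10 markers was lower in the knockout arrays (102873 to 113354 intensity units) than in the controls (123756 to 131980). Tek, Tie1 and Erg passed as lower, whereas Robo4 was higher in each knockout array (10899 ± 296 to 13276 ± 1066, SD, n = 3) without passing. The groups overlapped for Emcn and Esam. Of the markers of other cells, 0 of 8 fibroblast (Col1a1 and Pdgfra among them), 0 of 8 epithelial (Epcam and Cdh1) and 0 of 4 mesothelial (Msln and Upk3b) markers were over the floor in any array. Among 8 leukocyte markers Cd68 had signal and fell (3925 ± 293 to 971 ± 192, SD, n = 3) while Ptprc stayed at the floor. Among 8 mural markers Tagln had signal, with Pdgfrb and Cspg4 at the floor, and the summed mural signal was 66.5 to 109 in controls and 104 to 242 in knockouts. The brightest Epas1 probe set read 9549 ± 90.9 and 9392 ± 469 (SD, n = 3; limma adjusted p = 0.753) in controls and knockouts, and the other read from 10.3 to 11.4 in controls and from 11.5 to 21.7 in knockouts, near the floor. The Epas1 signal did not pass as lower in the knockout arrays, and where the deleted exons lie relative to the probes is not stated, so the loss of HIF-2α is known from the labels alone. The SD over genes of the log2 difference was 0.14 between controls 1 and 3, against 0.31 to 0.68 for other pairs of arrays in the same group.

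Col4a1 and Col4a2 are neighbours that are transcribed away from each other, and their start regions are shown because both genes were bright in all arrays. The windows run from 250 bases before to 50 bases after the annotated start (RefSeq, GRCm38.p6). The Col4a1 window lies at chr8:11312777-11313076 on the minus strand and the Col4a2 window at chr8:11312555-11312854 on the plus strand. The annotated starts are 21 bases apart and the transcripts overlap there, so no gap lies between the 2 genes. The bases before each start therefore lie on the side into which the other gene is transcribed. Capitals mark the 78 bases that both windows share, each read 5′ to 3′ on its own strand.
Col4a1: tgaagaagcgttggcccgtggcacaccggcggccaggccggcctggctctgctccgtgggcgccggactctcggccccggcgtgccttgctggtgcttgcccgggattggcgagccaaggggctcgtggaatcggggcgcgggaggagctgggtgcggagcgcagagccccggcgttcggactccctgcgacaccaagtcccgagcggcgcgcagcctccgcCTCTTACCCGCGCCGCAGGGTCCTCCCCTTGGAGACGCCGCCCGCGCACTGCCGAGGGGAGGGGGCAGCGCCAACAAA
Col4a2: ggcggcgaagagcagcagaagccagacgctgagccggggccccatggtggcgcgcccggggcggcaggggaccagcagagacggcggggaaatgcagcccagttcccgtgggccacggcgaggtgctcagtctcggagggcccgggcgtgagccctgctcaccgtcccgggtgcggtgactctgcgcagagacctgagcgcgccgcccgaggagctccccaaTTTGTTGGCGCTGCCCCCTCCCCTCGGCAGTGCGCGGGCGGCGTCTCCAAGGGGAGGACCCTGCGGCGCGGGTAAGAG

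The windows are rich in G and C, at 74.0% for Col4a1 and 73.7% for Col4a2. A TATA box (TATAAA, either strand) was not found in the 8 windows that RefSeq gave for 7 of the 8 genes (all but Nid2), and 13.6% of all 32851 windows of 300 bases hold one. The core of the hypoxia response element, to which HIF proteins bind, was searched as ACGTG and GCGTG on both strands. It was found in the windows of Col4a1, Col4a2 and Hspg2, that is in 3 of the 8 windows, against 43.8% of all windows. All 4 matches were GCGTG, and they are given with 8 bases on each side and the core in capitals, with the position of the core's first base counted from the start site.
Col4a1, -171: cggccccgGCGTGccttgctg
Col4a2, -105: gggcccggGCGTGagccctgc
Hspg2, -217: tgttagggGCGTGgtctatat
Hspg2, -80: ggggcgggGCGTGcacgggag
The windows of Col4a5, Col15a1, Col18a1 and Nid1 held neither core. A match describes letters and is no evidence of binding. The GC box GGGCGG (either strand, 35.7% of all windows) occurred once each in the Col4a1, Col4a5 and Nid1 windows. It occurred 3 times each in the Col4a2 window and in 1 of the 2 Col18a1 windows, and 5 times in the Hspg2 window. The Col15a1 window and the other Col18a1 window held none. Windows with and without a hypoxia core thus held the GC box.

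Signal differed between the groups in 1 of the 7 tested genes, Nid2, which was lower in the knockout arrays. Nid2 passed the filter on low signal through its controls alone, since its knockout values lay under 4.94, the lowest mean signal kept. The other 6, among them both main type IV collagen chains, did not pass the test. Over all genes tested, 13.7% passed, 8.63% as higher and 5.07% as lower, and over all probe sets 7.65% passed. These shares include genes at the floor in both groups, which can hardly pass. With the lowest 60% of probe sets left out, 1885 of 9449 genes tested passed. The median log2 difference of the 7 genes (knockout minus control) was -0.05, and that of all genes was 0.0071. Differences are on the scale of log2(intensity + 16), tested with limma with Benjamini-Hochberg adjustment over all genes and a threshold of 0.05. Control and knockout arrays had separate ranges for Nid1 and Nid2, that is for 2 of the 7, against 36.2% of all genes.

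**Figure D1:**
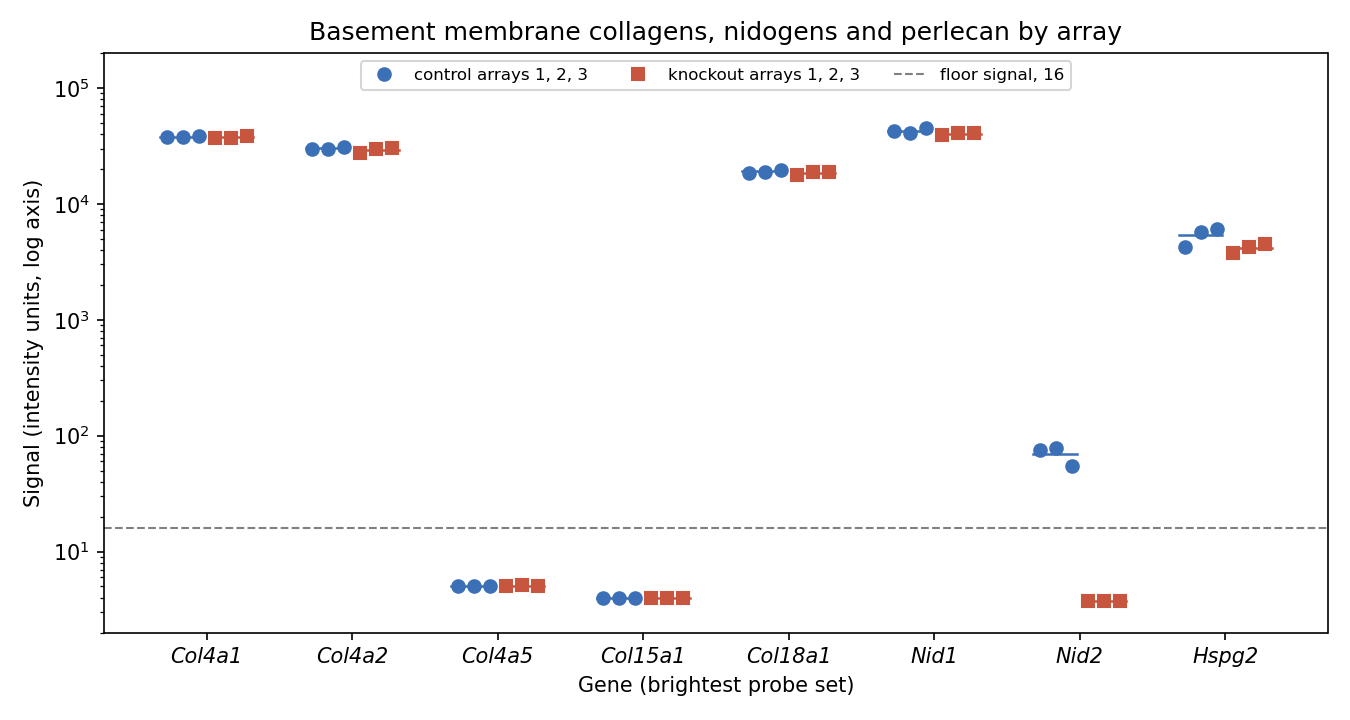
Signal of the brightest probe set of each gene on a log axis (intensity units), with circles for control arrays 1 to 3, squares for knockout arrays 1 to 3, short lines for group means and a dashed line at the floor signal of 16. Nid2 lies over the floor in the controls and under it in the knockout arrays, Col4a5 and Col15a1 lie under it in all arrays, and the other 5 genes are bright in both groups.

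The type IV collagen chains of vessels were bright, and neither passed the test. Their chosen probe sets lay near the top of the array's scale, with 0.344% of all probe sets brighter for Col4a1 and 0.668% for Col4a2, and whether differences are compressed at such signals was not tested. Col4a1, which encodes the α1 chain, read 38022, 37708 and 38378 intensity units in controls 1 to 3 and 37229, 37305 and 38092 in knockouts 1 to 3. The knockout arrays lay among or just under the controls, and the groups overlapped. The log2 difference was -0.02 ± 0.02 (SE, adjusted p = 0.538), with a 95% interval from 0.955-fold to 1.02-fold. The other Col4a1 probe set read 25759 ± 426 in controls and 25341 ± 355 in knockouts (SD, n = 3), a log2 difference of -0.02 ± 0.02 (adjusted p = 0.515 over all probe sets).

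Col4a2, which encodes the α2 chain, read 29833, 29612 and 30728 in controls and 27618, 29437 and 30077 in knockouts. Knockout 1 was the lowest array and knockout 3 lay within the control range. The log2 difference was -0.05 ± 0.04 (adjusted p = 0.446), with a 95% interval from 0.898-fold to 1.04-fold. Within arrays, the log2 value of Col4a2 minus that of Col4a1 moved by -0.03 between the groups (exact permutation test, two-sided, p = 0.6, and 0.6 adjusted over 3 pairs). As 3 arrays against 3 cannot give less than 0.1, or 0.3 after adjustment, this test could not have passed and does not show that the chains moved alike.

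Col4a5, whose α5 chain belongs to the type IV collagen of kidney and some other basement membranes, was at the floor. Its brighter probe set read between 5.02 and 5.14 in the 6 arrays and the other between 4.46 and 4.50. A log2 difference of 0.0034 (adjusted p = 0.909) therefore compares values at the floor, where signals carry no order. The further chains Col4a3, Col4a4 and Col4a6 were also at the floor in both groups.

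Of the multiplexin collagens, Col18a1 was bright and Col15a1 was at the floor. Col18a1 read 18480, 18988 and 19704 in controls and 17761, 18834 and 18710 in knockouts. Knockout 1 was the lowest array, and knockouts 2 and 3 lay within the control range. The log2 difference was -0.05 ± 0.04 (adjusted p = 0.443), with a 95% interval from 0.903-fold to 1.04-fold. The other Col18a1 probe set pointed the other way by a small amount, with 18342 ± 813 in controls, 18559 ± 792 in knockouts (SD, n = 3) and a log2 difference of 0.02 ± 0.05 (adjusted p = 0.881 over all probe sets). Col15a1 read between 3.94 and 3.96 in the 6 arrays and was left out by the filter on low signal. With Col15a1 at the floor, the within-array difference of Col18a1 and Col15a1 followed Col18a1 alone, with a change of -0.05 between the groups (exact permutation p = 0.4, and 0.6 adjusted over 3 pairs).

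Nid2, which encodes nidogen-2, had a low signal in controls and none over the floor in knockouts. It read 74.8, 78.5 and 54.6 intensity units in controls 1 to 3 and 3.73, 3.73 and 3.77 in knockouts 1 to 3. Each control was over the floor and each knockout was under it. Measured against the floor of 16, Nid2 was at least 4.28-fold lower in the knockout arrays, and at least 3.99-fold to 4.79-fold lower with 1 control left out. The fitted log2 difference was -2.10 ± 0.12 (limma adjusted p = 0.00336). Nid2 passed the filter through its controls alone, and its knockout values hardly varied. This p-value therefore rests mainly on the spread of the 3 controls against values at the floor. The fitted difference depended on the pseudocount, with -3.87 for a pseudocount of 1 and -0.97 for 64, so it is no measure of the fold. With any single array left out Nid2 still passed (adjusted p from 0.00331 to 0.0308) and with controls 1 and 3 averaged into 1 sample (0.0141). Its knockout values lay at the floor with an SD of 0.025 intensity units. Leaving out a knockout array could therefore hardly change the difference (-2.10 each time), and these runs are no independent check. With 60% of the probe sets left out for low signal Nid2 was not tested. Only 1 probe set named Nid2, so no other measured it. The summed endothelial marker signal, though not every marker in it, and Cd68 were also lower in the knockout arrays. Their part in the Nid2 result was not tested.

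Nid1, which encodes nidogen-1, was bright in both groups. Its brightest probe set read 42460, 40936 and 44691 in controls and 38958, 40440 and 40807 in knockouts. The highest knockout array lay just under the lowest control. The log2 difference was -0.09 ± 0.04 (adjusted p = 0.211), with a 95% interval from 0.871-fold to 1.01-fold. A share of 12.8% of all genes had knockout arrays that all lay under the controls.

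The other Nid1 probe sets gave larger differences that did not pass either. The second read 13468, 15627 and 15380 in controls and 13688, 10927 and 12142 in knockouts, with a log2 difference of -0.28 ± 0.11 (adjusted p = 0.197 over all probe sets). The dimmest read 540, 320 and 774 in controls and 182, 216 and 405 in knockouts, with a log2 difference of -0.98 ± 0.45 (adjusted p = 0.258 over all probe sets). In both, an array of one group lay within the range of the other. The mean of the 3 probe sets gave -0.45 (adjusted p = 0.136), so the size of the Nid1 difference depended on the probe set while its sign did not. The brighter the probe set, the smaller was the difference, and 0.235% of all probe sets were brighter than the one chosen. The part of signal compression in this was not tested.

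The log2 value of Nid2 minus that of Nid1 within arrays moved by -2.01 between the groups (exact permutation p = 0.1, the smallest that 3 against 3 can give, and 0.3 adjusted over 3 pairs). With Nid2 at the floor in all knockout arrays this change restates the Nid2 difference, and it rests on the pseudocount in the same way, with -3.78 for a pseudocount of 1 and -0.88 for 64.

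Hspg2, which encodes the core protein of perlecan, was lower on average in the knockout arrays without passing the test. It read 4258, 5664 and 6079 in controls and 3785, 4236 and 4546 in knockouts. Control 1 lay among the knockout arrays, and controls 2 and 3 lay over all of them. The log2 difference was -0.33 ± 0.16 (adjusted p = 0.234), with a 95% interval from 0.591-fold to 1.06-fold. Without control 1 it was -0.49 (adjusted p = 0.113), and without control 3 it was -0.23 (0.515).

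The other Hspg2 probe set had the same order of arrays within each group. It read 1321, 1902 and 1941 in controls and 1253, 1420 and 1483 in knockouts, with a log2 difference of -0.29 ± 0.18 (adjusted p = 0.371 over all probe sets). The interval for Hspg2 was wide, so a fall to 0.591-fold and no fall both lie inside it. For Col4a1, whose probe set was brighter, the interval was narrower on the same arrays.

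**Figure D2:**
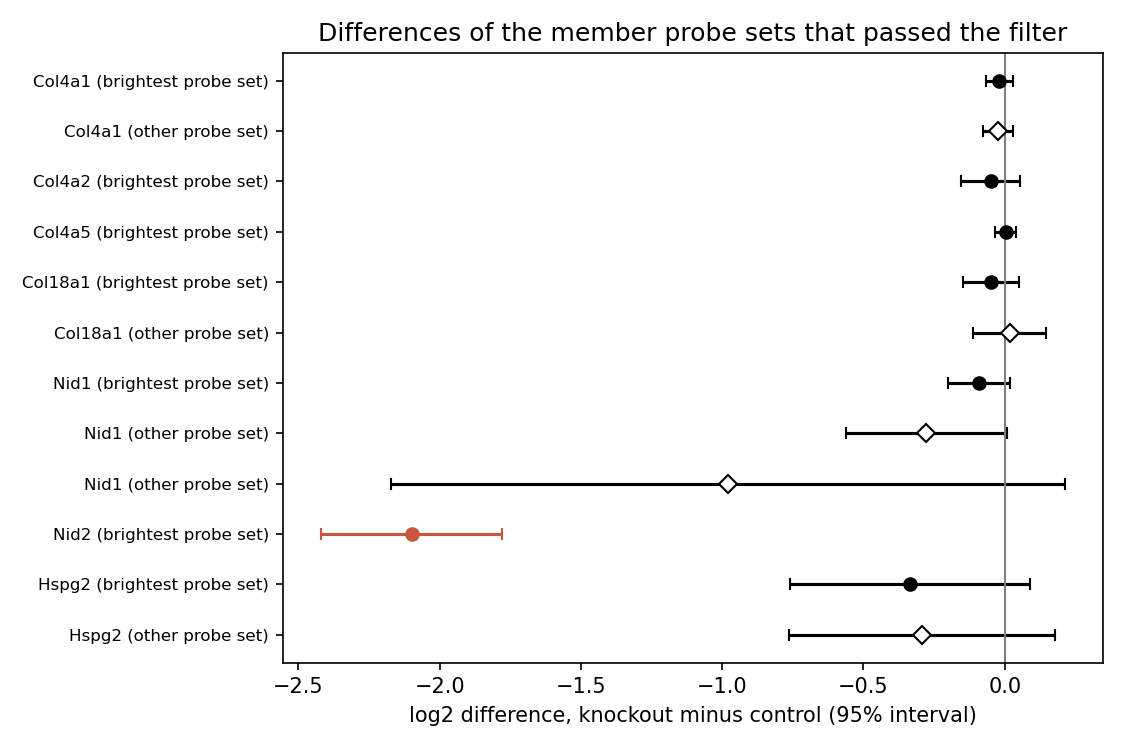
Log2 difference, knockout minus control, of the 12 probe sets of these genes that passed the filter, with 95% intervals from limma; filled circles mark the brightest probe set of a gene, open diamonds the others, and red an adjusted p under 0.05. Nid2 stands apart at -2.10, with its knockout arrays at the floor, the dimmest Nid1 probe set has the widest interval, and Col4a5 is at the floor in both groups.

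Under other settings, the differences of Col4a1, Col4a2 and Col18a1 stayed close to 0, while those of Nid1 and Hspg2 varied more. Over 20 settings the log2 difference of Col4a1 ran from -0.04 to 0.0053, above 0 when the spike-in signal was a covariate, and that of Col4a2 from -0.11 to -0.01. It ran from -0.08 to -0.02 for Col18a1, from -0.45 (the mean of its probe sets) to -0.04 for Nid1 and from -0.49 to -0.23 for Hspg2. With array weights, Col4a1 (-0.03, adjusted p = 0.0389), Col4a2 (-0.11, adjusted p = 0.0125) and Nid1 (-0.13, adjusted p = 0.00984) passed as lower, and the count of genes passing over the whole array was then 7494 instead of 1683. Col18a1 and Hspg2 passed in none of the 20 settings.

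**Figure D3:**
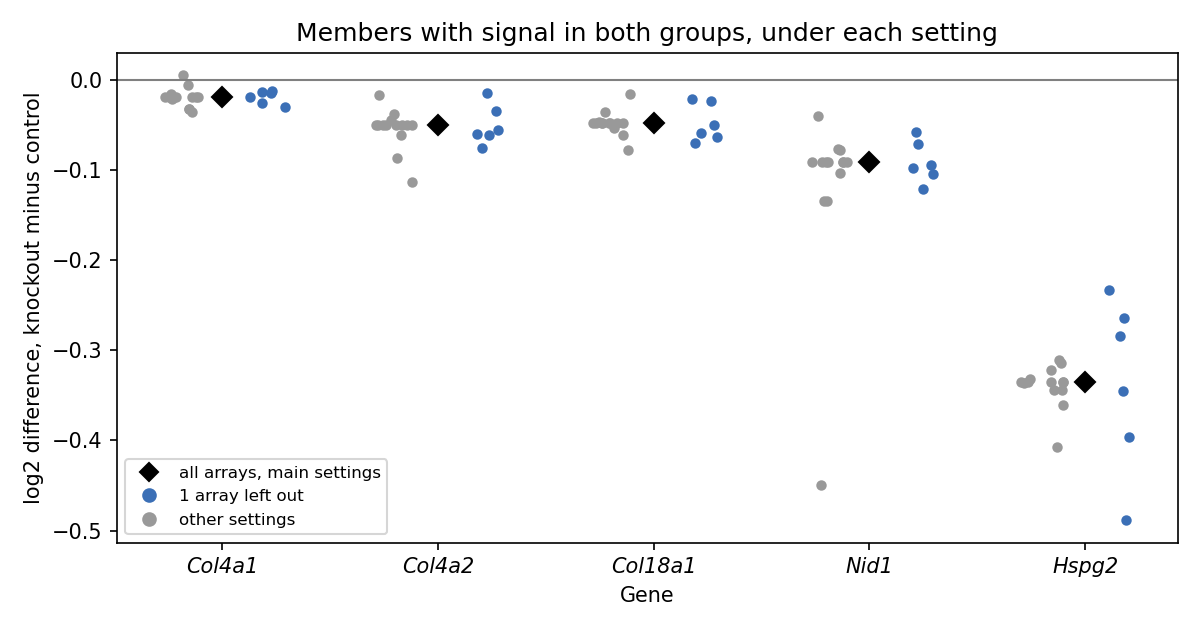
Log2 difference, knockout minus control, of the 5 genes with signal in both groups: diamonds give the value from all arrays, blue points the 6 values with 1 array left out, and grey points the other settings. Col4a1, Col4a2 and Col18a1 stay between -0.11 and 0.0053, one grey point of Nid1 at -0.45 is the mean of its probe sets, and Hspg2 has the widest spread when an array is left out.

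By a rule that takes the largest difference in each direction, the genes most like Nid2 over the 6 arrays were Trim15, Fam161a and Kcnj8 (Pearson r of log2 values 0.998, 0.998 and 0.997). Trim15 read 73.1, 85.3 and 66.4 in controls and 8.93 on average in knockouts, Fam161a read 25.0 and 5.58, and Kcnj8, a potassium channel subunit, read 694 and 4.60. All 3 shared with Nid2 a knockout group at the floor, and 320 genes had r over 0.95 with Nid2. No likeness is given for Col4a5, the only tested gene of the group with a difference above 0, because its values were at the floor.

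Among other collagens of basement membranes and of the cell surface, genes moved in both directions. Of 8 listed, 4 were tested and 3 passed, 2 higher and 1 lower. Col7a1, which forms anchoring fibrils under epithelia, read 64.6, 125 and 80.4 in controls and 499, 568 and 395 in knockouts, and rose by 2.27 ± 0.26 on the log2 scale (limma adjusted p = 0.0139). Col8a1, a short-chain collagen of vessel walls, rose by 0.84 ± 0.18 (adjusted p = 0.0473). Col13a1, a transmembrane collagen, fell from 7321 ± 493 to 5039 ± 286 (SD, n = 3; log2 difference -0.54 ± 0.07, adjusted p = 0.0174). The 3 calls were all lost without control 1, without control 3 or without knockout 1, and 2 were kept without control 2. With 13.7% of all genes passing and 4 tested, these counts describe single genes and not the list.

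Laminin chains, which form the other network, also went both ways. Of 11 listed, 5 were tested, with 2 higher, 1 lower and 2 not passing, against 13.7% of all genes passing. With 5 tested, these counts too describe single genes. Lama4, the α4 chain of vessel laminin, read 592, 796 and 708 in controls and 9538, 9888 and 10155 in knockouts. Lama5, the other main endothelial α chain, fell from 5901 ± 996 to 3011 ± 189 (SD, n = 3; log2 difference -0.95 ± 0.15, adjusted p = 0.0245). Lamb2, the β2 chain, rose by 0.86 ± 0.17 (adjusted p = 0.0413). Lama4 passed whichever array was left out, whereas Lama5 and Lamb2 each lost their calls in 4 of 6 cases. For Lama5 these were without control 2, control 3, knockout 1 or knockout 2, and for Lamb2 without control 1, control 3, knockout 1 or knockout 2.

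Of 21 further glycoproteins and proteoglycans of basement membranes, 16 were tested, with 1 higher, 3 lower and 12 not passing, against 8.63% of all genes higher and 5.07% lower. Tgfbi, an adhesion protein that binds collagens, fell from 1493 ± 295 to 284 ± 61.2 (SD, n = 3; adjusted p = 0.00879). Agrn, which encodes the heparan sulfate proteoglycan agrin, read 2901, 3352 and 2916 in controls and 1756, 2111 and 1669 in knockouts (log2 difference -0.73 ± 0.11, adjusted p = 0.026). Mmrn2, an endothelial matrix protein, rose by 1.08 ± 0.13 (adjusted p = 0.0162). Of the 4 calls, 0 were kept without control 1 or control 3, 1 without knockout 1, 2 without control 2 and 3 without knockout 2 or knockout 3. The median of the list was 2.4e-05, but only 12 of the 16 tested genes had signal in both groups. The rest were at the floor in both, with differences near 0. The list median was -0.05 with the lowest 60% of probe sets left out.

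The genes that fold, modify, export and crosslink type IV collagen did not pass in the main fit, and their count depended on the setting. Of 22 listed, 18 were tested and 0 passed with limma, against 13.7% of all genes, with 3 at an unadjusted p under 0.05. With 18 tested, this count describes single genes and not the list. Between 0 and 6 of these genes rose in the other settings, the latter with array weights or without control 2 and knockout 3, and at most 1 fell. With array weights 7494 of all 12277 genes tested passed, and without control 2 and knockout 3 the count was 4644. P4hb, a subunit of the prolyl hydroxylase that stabilises collagen helices, read 29009 ± 557 in controls and 30121 ± 1610 in knockouts (SD, n = 3; log2 difference 0.05 ± 0.05, adjusted p = 0.482). The median of the list was 0.05. For heparan sulfate synthesis and trimming, which bears on perlecan's side chains, 14 of 19 were tested and 1 rose, against 8.63% of all genes. The count was 8 higher and 2 lower with array weights, and 7 higher and 1 lower without control 2 and knockout 3. Beside these stand the same 7494 and 4644 of all genes. The gene that rose was Hs2st1, a 2-O-sulfotransferase, with 0.33 ± 0.06 (adjusted p = 0.03), a call lost without control 1, control 3, knockout 1 or knockout 2. The list median of 0.26 turned to -0.07 when the spike-in signal was a covariate.

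Cell receptors for these matrix proteins and proteases linked to their turnover were tested in the same fit. Of 17 receptors 15 were tested and 1 fell, against 5.07% of all genes. It was the laminin receptor subunit Itga6 (-0.26 ± 0.05, adjusted p = 0.0451), whose call was kept without knockout 3 and lost without any other single array. The receptor count was 3 higher and 7 lower with array weights, where 7494 of all 12277 genes tested passed. It was 2 higher and 5 lower without control 2 and knockout 3, where 4644 passed. Of 18 proteases and inhibitors 15 were tested, with 6 lower and 1 higher, against 5.07% and 8.63% of all genes. As for the other lists, these genes were chosen with earlier results of these data known. The counts therefore describe single genes and are no test of the list. Among the 12 tested proteases 5 fell and 0 rose. Among the 3 tested inhibitors, the tissue inhibitors of metalloproteinases, Timp1 rose (log2 difference 0.74 ± 0.14, limma adjusted p = 0.04) and Timp2 fell (-0.47 ± 0.08, adjusted p = 0.0308). Adamts1 read 21542, 21557 and 22781 in controls and 9518, 8641 and 10015 in knockouts (adjusted p = 0.00288). Adamts9, a related secreted metalloprotease, had a log2 difference of -1.30 ± 0.10 (adjusted p = 0.00593), and both passed with each array left out. Mmp14, a membrane-bound collagenase, fell by 1.09 ± 0.11 (adjusted p = 0.012), and lost its call without control 1, control 3 or knockout 1. Of the 7 calls, 2 were kept without control 1, control 3 or knockout 1, 5 without control 2 or knockout 2, and 7 without knockout 3. The list median was -0.18.

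**Figure D4:**
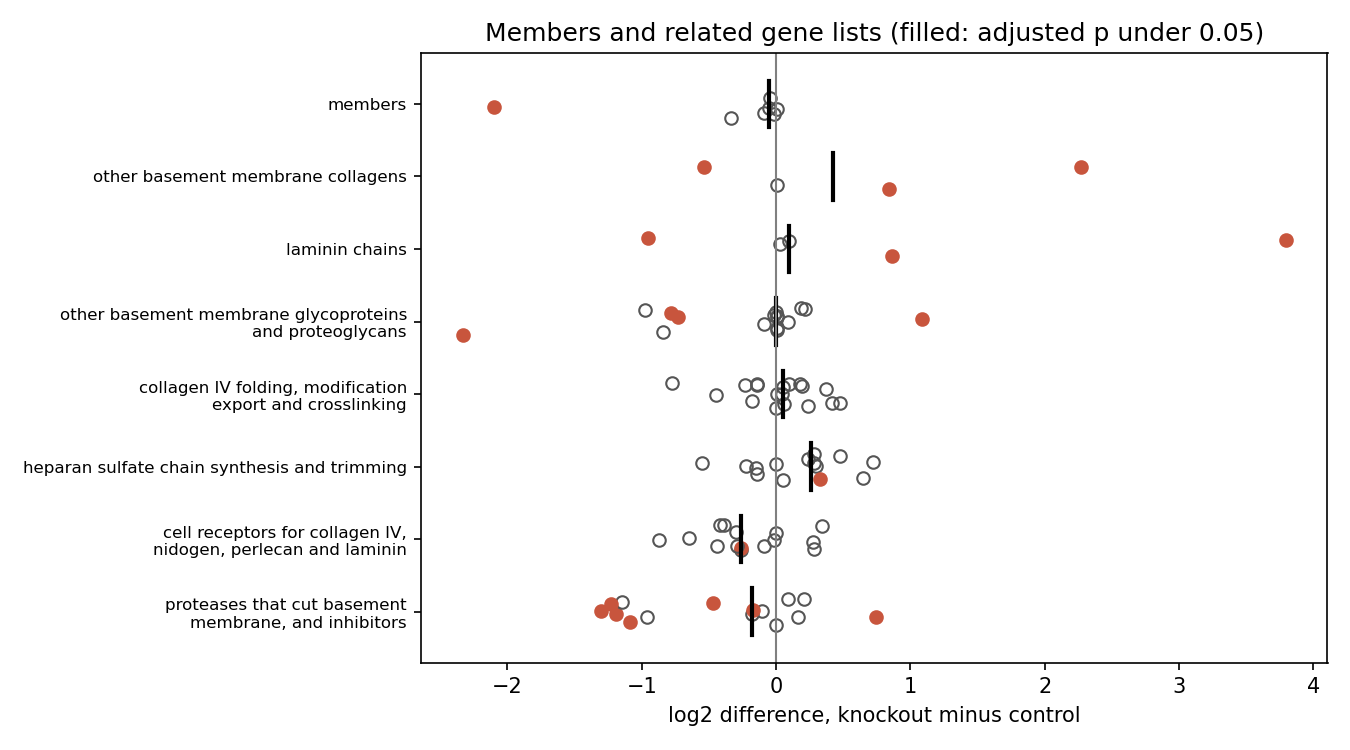
Log2 difference, knockout minus control, of the tested genes of this group (top row) and of 7 related lists; filled points passed at an adjusted p under 0.05, open points did not, and vertical bars are medians. In the top row 1 of 7 points is filled, at -2.10 (Nid2), while 3 of 5 tested laminin chains and 7 of 15 tested genes in the row of proteases, which includes 3 inhibitors, are filled.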

How the data were processed

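Total RNA of each sample was amplified, biotin-labelled and measured on 1 Affymetrix array, per the labels' protocols. The deposited values are linear intensities per probe set. MAS5 and GCRMA are named by the submitters' processing notes, with no version or role given. Quantiles were nearly equal between arrays, so the intensity values the authors deposited were not normalized again. The number of arrays limits the precision.

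Of 45101 probe sets, 64 array controls and the 40% with the lowest mean were left out, which left 27023. A gene was represented by its brightest probe set. Values were taken as log2(intensity + 16) and compared with two-sided moderated tests of limma 3.58.1 (lmFit, eBayes; R 4.3.3). Other probe sets were read from a fit over all probe sets kept. A gene whose signal was under 16 throughout a group counted as at the floor in it, and the fold of Nid2 is the geometric mean of its bright group over 16. The fit was tested on simulated data. Figures used matplotlib 3.10.9.

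The 8 genes and the related lists were chosen with earlier results of these data known. Named were the 8 genes, up to 3 called genes of each list with the smallest p (the brightest where none passed), the 3 genes most like the member with the largest fall (those for the largest rise, Col4a5, were left out, as it was at the floor), Epas1 and the first 2 markers of each cell type. Tagln, Cldn5, Tek, Tie1, Erg, Robo4, Emcn, Esam, Timp1, Timp2, Col4a3, Col4a4 and Col4a6 were named after their values were seen. Deviations from the group mean did not settle whether the replicate numbers of the labels pair the arrays, and the main fit had no block. They correlated at -0.47, 0.84 and 0.80 for same-numbered arrays. Differently numbered arrays correlated too, at 0.76 for control 1 with knockout 3 and -0.89 for control 2 with knockout 3. What the arrays share across the groups was not tested. Alternatives are other scalings, pseudocounts, filters, eBayes settings, array weights, means of probe sets, the replicate number as a block, the bioB and bioC spike-in level as a covariate, controls 1 and 3 averaged and each array left out; leaving out control 2 and knockout 3 together was added after the data were seen.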

Additional observations from a re-analysis of the deposited data

How the results depend on the processing

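Over all genes, 1683 passed. The count was 883 without the filter, where 18193 genes were tested, 7494 with array weights, 2995 with the replicate number as a block, 194 with controls 1 and 3 averaged and 4644 without control 2 and knockout 3. With 1 array left out it ran from 207 to 3008. In every setting that tested Nid2 it passed, each time with knockout values at the floor, so these settings are no independent support. The count of passing genes in the group was 4 with array weights (Col4a1, Col4a2, Nid1 and Nid2). With 60% of probe sets left out it was 0 of 5 tested, since Nid2 was then under the filter. It stayed at 1 in the other settings. The default weight estimate did not converge, so weights came from limma's gene-by-gene method; they ran from 0.231 for knockout 3 to 6.36 for knockout 1. The replicate block changed no call in the group (Nid2 adjusted p = 0.0146, Hspg2 adjusted p = 0.0678). With 1 array left out, the paired change of Col4a2 and Col4a1 ran from -0.05 to -0.0015, that of Nid2 and Nid1 from -2.17 to -1.90 and that of Col18a1 and Col15a1 from -0.07 to -0.02. The share of higher genes was 63.0%, and it was 39.4% when the spike-in signal was a covariate and 45.4% without control 1. The spike-in signal was 1466, 1712 and 1517 in controls 1 to 3 and 1845, 1975 and 1675 in knockouts 1 to 3. This covariate thus partly follows the groups and may take up part of their difference. Signals near the floor limit Nid2, Col4a5 and Col15a1.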
